A study of Homo sapiens with 8 samples.

Results

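The genes described are 10 that store iron, carry it in or out of the cell, or make, move and break down heme: FTL, FTH1, HMOX1, HMOX2, FECH, TFRC, BLVRA, BLVRB, SLC40A1 and SLC48A1. They were chosen by symbol with earlier results of these data known, so their direction is no independent evidence. They are 10 of the 14535 genes kept from the deposited expression table. All 10 passed the filter on low values (at least 1 CPM, that is, reads scaled to a common library size, in at least 2 of 8 libraries), which 13213 genes passed. The cells were Calu-6, an established human line from a lung carcinoma, labelled NSCLC (non-small cell lung cancer) with the genotype WT. They were treated with 1 µM KI696 for 24 h, with DMSO vehicle for 24 h, with 1 µM KI696 for 48 h or with DMSO for 48 h, with 2 libraries per group. KI696 keeps KEAP1 from binding NRF2, a transcription factor of antioxidant defence, and the comparisons ask which transcripts change when it is added. The results come from 1 cell line at 1 dose, and no label states whether libraries within a group are separate cultures, so p-values may measure only technical spread.

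Cells keep spare iron inside ferritin, a shell built from heavy (FTH1) and light (FTL) chains, and take iron up from transferrin through the receptor TFRC. Heme is completed when FECH inserts iron into protoporphyrin, and is opened by the heme oxygenases HMOX1 and HMOX2 to release iron and biliverdin. BLVRA reduces the IX-alpha form of biliverdin to bilirubin, and BLVRB acts on the IX-beta form and on flavins. When iron is scarce, iron regulatory proteins bind a hairpin called the iron-responsive element. In the 5′ untranslated region (UTR) of ferritin and ferroportin (SLC40A1) transcripts this blocks translation, and in the 3′ UTR of TFRC it stabilises the transcript. NRF2 is known to raise transcription of several of these genes, and BACH1 to repress HMOX1 and both ferritin chains.

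The hairpins are shown because they mark members whose transcripts iron regulatory proteins are known to bind. They were searched for in GENCODE 29 transcripts (hg38) as an unpaired C, 5 paired bases and a 6-base loop CAGTGN, and are printed 5′ to 3′ as the 29 bases around them, with the loop in capitals.
FTL, 5′ UTR, chr19:48965335-48965363, plus strand: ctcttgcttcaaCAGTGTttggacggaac
FTH1, 5′ UTR, chr11:61967574-61967602, minus strand: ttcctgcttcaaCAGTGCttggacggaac
SLC40A1, 5′ UTR, chr2:189580661-189580689, minus strand: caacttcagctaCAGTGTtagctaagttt
TFRC, 3′ UTR, site 1 of 4, chr3:196050979-196051007, minus strand: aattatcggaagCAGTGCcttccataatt
TFRC, 3′ UTR, site 2, chr3:196050575-196050603, minus strand: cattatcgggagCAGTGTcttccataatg
TFRC, 3′ UTR, site 3, chr3:196050510-196050538, minus strand: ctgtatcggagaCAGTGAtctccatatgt
TFRC, 3′ UTR, site 4, chr3:196050463-196050491, minus strand: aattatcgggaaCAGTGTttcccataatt
The same search matched outside the coding sequence in 0.808% of 19684 protein-coding genes. The other 6 members had no match, and in any gene a hairpin that departs from this pattern would be missed. These data measure transcript levels, so binding and translation at the hairpins were not measured.

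Libraries held 6974235 to 14170211 reads in the table, and a count of 3 reads corresponded to 0.213 to 0.428 CPM. All 8 epithelial markers checked were present, with a summed level of 924 to 1411 CPM in the KI696 libraries, against 1849 to 2620 CPM in the DMSO libraries. At 24 h limma called 8 of 8 epithelial (median log2 change -2.22) and 5 of 5 tested lung lineage markers (-3.89) lower with KI696. At 48 h it called 3 of 8 (-0.68) and 0 of 5 (0.04) lower. Of all tested genes 30.5% were called lower at 24 h and 26.4% at 48 h. Libraries of 48 h differed within their groups: CDH1 had 29 and 4.46 CPM with KI696, against 34.3 and 7.39 CPM with DMSO, and NKX2-1 12.8 and 1.16 CPM, against 12.1 and 2.49 CPM. Of the other markers, 6 of 8 for lung lineage, 4 of 8 for leukocytes, 5 of 7 for fibroblasts and endothelium and 3 of 10 for erythroid cells were listed in the table, and PTPRC and CD3E were not. Summed levels in KI696 libraries, against DMSO libraries, were 49.2 to 103 against 74.3 to 137 CPM for lung lineage, 29.1 to 39.2 against 42.2 to 48.1 CPM for leukocytes, 24.8 to 47.1 against 84.6 to 106 CPM for fibroblasts and endothelium, and 8.08 to 12.7 against 13.3 to 19.8 CPM for erythroid cells. EPOR made up most of the erythroid sum, with 5.76 to 8.69 CPM in KI696 libraries, against 12.7 to 19.4 CPM in DMSO libraries. The other erythroid markers listed, HBA1 and HBA2, went the other way, with few reads. The part of these markers in the results was not tested. Across all tested genes the median log2 change at 24 h was -0.12 on the deposited scale and -0.01 after TMM scaling. Of the genes called at 24 h 37.2% were higher as deposited and 51.4% after TMM, 51% after median-ratio and 51.7% after quantile scaling. For the difference between times these shares were 79.5%, 66.7%, 63.9% and 70.2%.

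Most of the 10 genes had higher transcript levels with KI696. At 24 h 7 were higher and 2 lower in KI696 cells than in DMSO cells, and 1 was not called (limma, Benjamini-Hochberg adjusted p under 0.05 over all tested genes). Of all tested genes 48.6% were called at 24 h, 18.1% higher and 30.5% lower. At 48 h the same 7 were higher and 0 were lower, where 48.8% of all tested genes were called, 22.4% higher and 26.4% lower; at an unadjusted p under 0.05 limma called 8 members at 48 h, which adds BLVRA as lower, and voom called 0 lower. The median log2 change of the members was 1.04 at 24 h and 1.04 at 48 h, beside medians over all tested genes of -0.12 and -0.07. In FTL, FTH1, HMOX1, FECH, TFRC, BLVRB and SLC48A1 all 4 KI696 libraries lay above all 4 DMSO libraries, which held for 7 members and 19.9% of all tested genes. In BLVRA and SLC40A1 all 4 lay below, which held for 2 members and 25.7% of tested genes. Within a time the KI696 pair lay above the DMSO pair in 29.7% of tested genes at 24 h and 32.5% at 48 h, and below it in 47.4% and 40.5%; the member counts were again 7 and 2 at each time. In bulk RNA a change in the mix of cell states and a change per cell cannot be told apart.

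**Figure D1:**
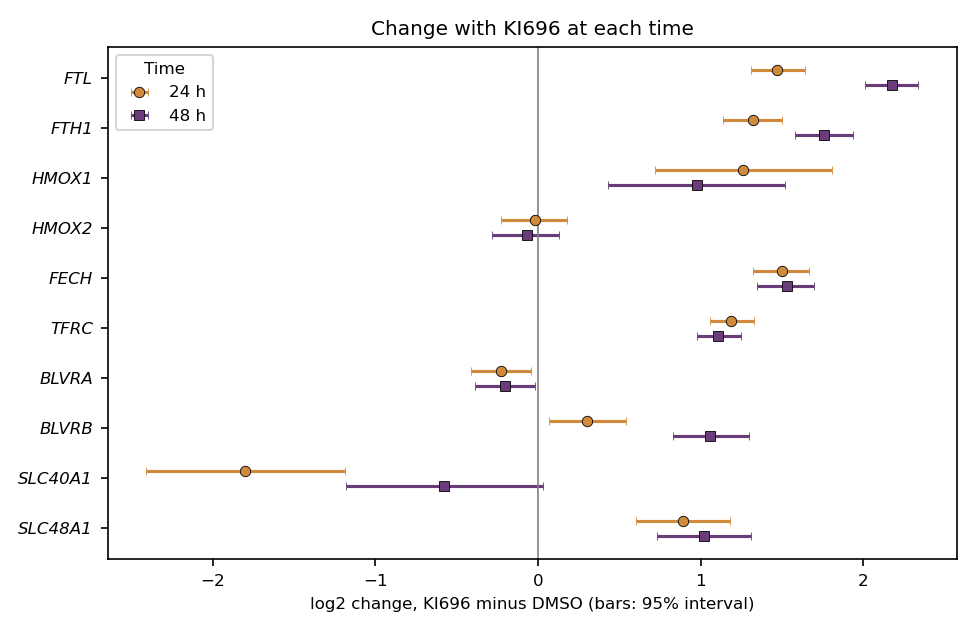
Log2 change of each of the 10 genes, KI696 over DMSO at 24 h and 48 h, with 95% intervals from the limma fit. The intervals of FTL, FTH1, FECH and TFRC lie at or above 0.98 at both times, and those of HMOX2 span 0. That of SLC40A1 is the widest at 24 h and lies below 0 there, and it spans 0 at 48 h (-1.18 to 0.03).

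The storage genes were the most abundant members and rose at both times. FTL had 6099 and 6317 CPM in KI696 24 h libraries, against 2211 and 2257 CPM in DMSO 24 h libraries. At 48 h the values were 5746 and 6234 CPM with KI696, against 1454 and 1204 CPM with DMSO. No KI696 library came near a DMSO library: FTL was 2.78-fold higher at 24 h (log2 change 1.47 ± 0.08, SE; limma adjusted p = 3.8e-08) and 4.52-fold higher at 48 h (log2 change 2.18 ± 0.08; limma adjusted p = 1.2e-09).

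FTH1, the chain that oxidises iron as it enters the shell, had 3095 and 3290 CPM with KI696 at 24 h, against 1285 and 1271 CPM with DMSO. At 48 h the KI696 libraries had 3046 and 3333 CPM, against 1049 and 845 CPM with DMSO. Its log2 change was 1.32 ± 0.08 at 24 h (limma adjusted p = 1.7e-07) and 1.76 ± 0.08 at 48 h (limma adjusted p = 9.2e-09). GENCODE 29 names 16 pseudogenes after FTL and 25 after FTH1, and 1 after FECH, so how reads were assigned to these genes is uncertain.

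Together the ferritin chains took 0.92% and 0.966% of the reads in KI696 24 h libraries, against 0.356% and 0.362% in DMSO 24 h libraries. At 48 h the shares were 0.862% and 0.92% with KI696, against 0.256% (95% Wilson interval 0.252 to 0.26%) and 0.203% (0.201 to 0.206%) with DMSO. These intervals cover counting error only, and the gap between the DMSO 48 h libraries is wider than they are. There were more reads on FTL per read on FTH1 with KI696: 1.97 and 1.92 at 24 h, against 1.72 and 1.77 with DMSO, and 1.89 and 1.87 at 48 h, against 1.39 and 1.42 with DMSO. The log2 ratio was higher with KI696 by 0.15 at 24 h and 0.42 at 48 h, mean 0.29, and an exact two-sided permutation test within time gave p = 0.0556, the smallest that its 36 arrangements allow.

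**Figure D2:**
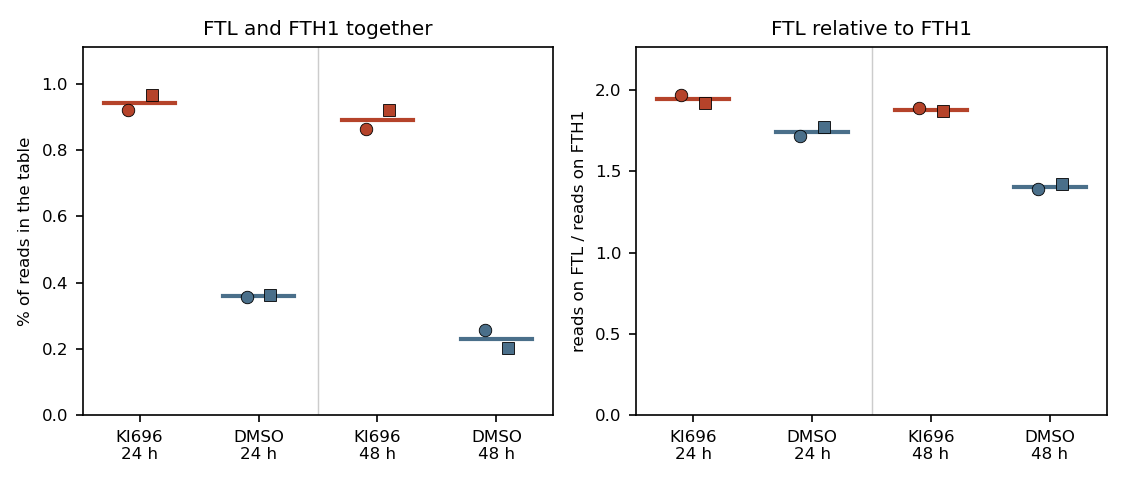
Share of all table reads on FTL plus FTH1 (left, percent) and reads on FTL divided by reads on FTH1 (right), per library, with lines at group means. The share is 0.862 to 0.966% in KI696 libraries and 0.203 to 0.362% in DMSO libraries, and the ratio is lowest in the DMSO 48 h libraries.

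The ferritin effect was larger at 48 h for FTL, and the levels show where the groups moved. The 48 h effect of KI696 on FTL exceeded the 24 h effect by 0.70 ± 0.11 log2 (limma adjusted p = 0.012). That of FTH1 exceeded it by 0.44 ± 0.12, which did not pass (limma adjusted p = 0.095; 95% interval 0.19 to 0.69). In DMSO cells both chains were lower at 48 h than at 24 h, FTL by a log2 change of -0.76 ± 0.08 (limma adjusted p = 1.2e-04) and FTH1 by -0.44 ± 0.08 (limma adjusted p = 0.0054), whereas in KI696 cells the 48 h minus 24 h values, which were not tested, were -0.05 and -0.00.

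These comparisons share libraries: the DMSO 24 h and DMSO 48 h groups enter both the difference of effects and the change over time in DMSO. Across the 10 members the difference between effects was called for 2, both positive (FTL and BLVRB), where 0.848% of all tested genes were called, 0.674% higher and 0.174% lower. The 48 h against 24 h change in DMSO was called for 3 members, all lower (FTL, FTH1 and BLVRB), where 9.64% of all tested genes were called, 5.29% higher and 4.35% lower. The call on FTL's difference was lost when any 1 of the 4 libraries of 24 h was left out (adjusted p 0.069 to 0.15), with values of 0.68 to 0.73. With no variance trend limma called no difference among all genes, and 2113 genes, 4 of them members, had an unadjusted p under 0.05 with the trend.

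Heme breakdown was split among its genes. HMOX1, the inducible heme oxygenase, had 44.6 and 40.1 CPM in KI696 24 h libraries, against 14.5 and 21 CPM in DMSO 24 h libraries. At 48 h it had 61.7 and 46.8 CPM with KI696, against 38.6 and 19.1 CPM with DMSO. The groups did not overlap at either time, and the DMSO 48 h libraries had the widest spread of its 4 groups (SD 13.7 CPM). Its log2 change was 1.26 ± 0.25 at 24 h (limma adjusted p = 0.0012) and 0.98 ± 0.25 at 48 h (limma adjusted p = 0.006). Without DMSO 48 h library B the 48 h change was 0.48 and the call was lost (limma adjusted p = 0.064), and with no variance trend its adjusted p was 0.075. The difference between its effects was not called (-0.29 ± 0.36, limma adjusted p = 0.76; 95% interval -1.06 to 0.49).

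HMOX2, the constitutive enzyme, had 38.8 and 38.1 CPM with KI696 at 24 h, against 40.4 and 37.8 CPM with DMSO. After 48 h it had 46 and 39.3 CPM with KI696, against 44.7 and 44.8 CPM with DMSO. The groups overlapped at both times. Its log2 change was -0.02 (95% interval -0.23 to 0.18) at 24 h and -0.07 (-0.28 to 0.13) at 48 h, and the 24 h value was 0.08 under TMM, median-ratio and voom and 0.05 under quantile scaling.

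Of the biliverdin reductases, BLVRB was higher and BLVRA slightly lower with KI696. BLVRB, which reduces flavins and biliverdin IX-beta, had 40.7 and 35.2 CPM with KI696 at 24 h, against 32.5 and 28.8 CPM with DMSO. The 48 h levels were 43 and 48.5 CPM with KI696, against 22.1 and 21.5 CPM with DMSO. The groups lay close at 24 h and well apart at 48 h: the log2 change was 0.30 ± 0.11 (limma adjusted p = 0.035) at 24 h and 1.06 ± 0.11 (limma adjusted p = 4.8e-06) at 48 h. The 24 h call was lost without KI696 24 h library A (adjusted p = 0.25), without DMSO 24 h library B (adjusted p = 0.23) and with no variance trend (0.074). The difference between the effects was 0.76 ± 0.15 (limma adjusted p = 0.042), a call lost after TMM (0.062), median-ratio (0.056) and voom (0.069) scaling, and without any of the 4 libraries of 24 h or DMSO 48 h library B (0.07 to 0.23). In DMSO cells BLVRB was lower at 48 h than at 24 h by a log2 change of -0.49 ± 0.11 (limma adjusted p = 0.014).

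BLVRA, the reductase of biliverdin IX-alpha, had 58 and 52.6 CPM with KI696 at 24 h, against 63.7 and 65.6 CPM with DMSO. The 48 h levels were 55.7 and 62.2 CPM with KI696, against 65.2 and 70.4 CPM with DMSO. KI696 libraries were below DMSO libraries by a small margin, with a log2 change of -0.23 ± 0.09 (limma adjusted p = 0.043) at 24 h and -0.20 ± 0.09 (limma adjusted p = 0.065) at 48 h. The 24 h call was lost after TMM scaling (-0.12, adjusted p = 0.3), after median-ratio (0.24), quantile (0.063) and voom (0.33) scaling, with no variance trend (0.097), and without DMSO 24 h library A (0.11), DMSO 24 h library B (0.17) or KI696 24 h library B (0.27). The 48 h change was called after quantile scaling (adjusted p = 0.049), without DMSO 48 h library A (0.049) and without KI696 48 h library B (0.038).

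**Figure D3:**
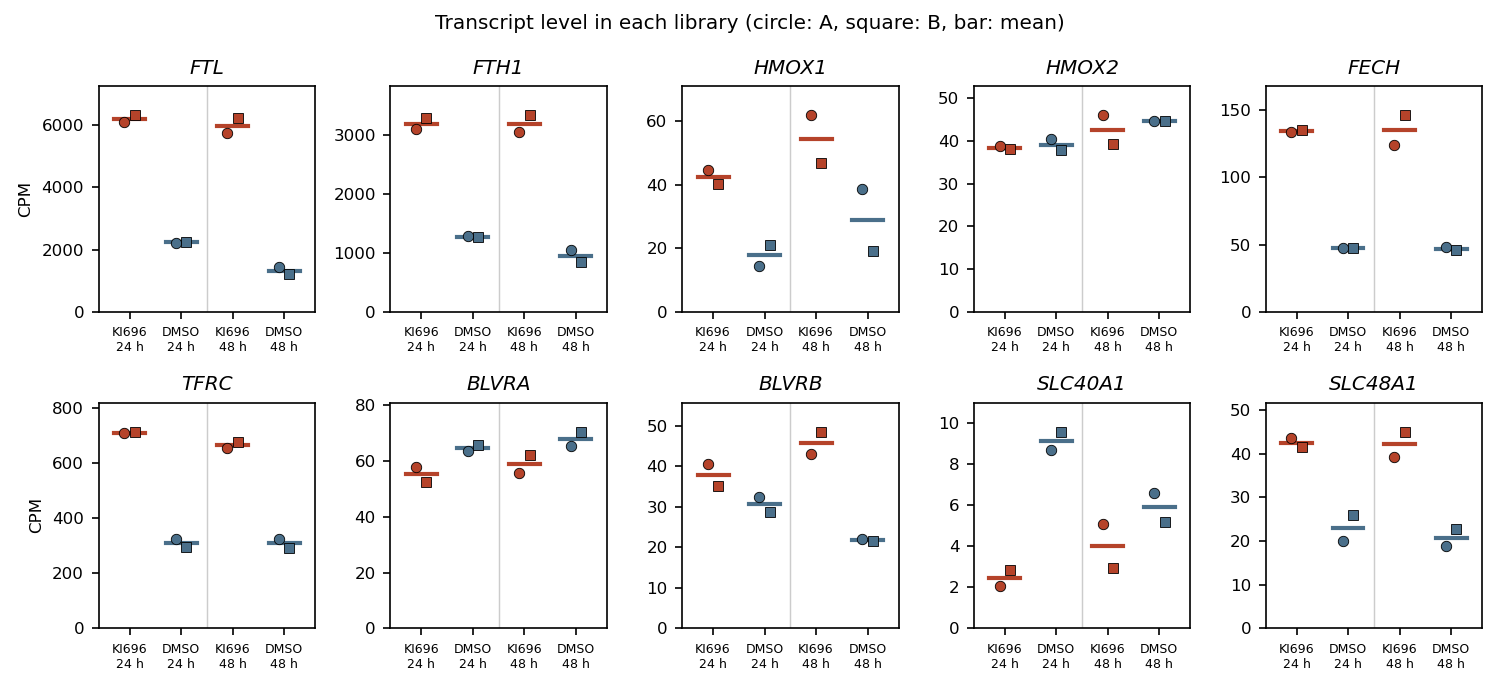
CPM of each of the 10 genes in every library on linear axes from 0, KI696 and DMSO at 24 h and 48 h, with lines at group means (n = 2). KI696 libraries lie above DMSO libraries for 7 genes, below them for BLVRA and SLC40A1, and mixed with them for HMOX2.

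FECH, the last enzyme of heme synthesis, was higher at both times by about the same amount. It had 134 and 135 CPM with KI696 at 24 h, against 47.4 and 47.3 CPM with DMSO. After 48 h it had 124 and 146 CPM with KI696, against 47.9 and 45.6 CPM with DMSO. The log2 change was 1.50 ± 0.08 (limma adjusted p = 5.0e-08) at 24 h and 1.53 ± 0.08 (limma adjusted p = 2.5e-08) at 48 h. The effects differed by 0.03 ± 0.11 (95% interval -0.22 to 0.27), a value whose sign turned under TMM, median-ratio, quantile and voom scaling.

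Upstream sequence was searched for the element that NRF2 binds. The core of the antioxidant response element, TGACNNNGC on either strand, was looked for in RefSeq windows (GRCh38.p14, 250 bases before to 50 after the start); 8 of the 10 members have an entry, and FTH1 and HMOX1 do not. Only FECH held a match, with its core on the opposite strand, 38 bases before the start. It is printed 5′ to 3′ on the strand of FECH with the match in capitals.
FECH, chr18:57586722-57586750, minus strand: ccgggagggcGCGAGGTCAgggggctggg
The match occurred in 13.3% of all windows and in 16.1% of genes, and it is a match of letters, with no binding measured. Sequence outside the windows was not searched, so the lack of a match does not show that a gene lacks the element.

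TFRC, the receptor that brings transferrin iron into the cell, was higher in all KI696 libraries. It had 709 and 713 CPM with KI696 at 24 h, against 325 and 297 CPM with DMSO. At 48 h it had 656 and 678 CPM with KI696, against 324 and 293 CPM with DMSO. The gap was several times the spread within groups, with a log2 change of 1.19 ± 0.06 (limma adjusted p = 3.9e-08) at 24 h and 1.11 ± 0.06 (limma adjusted p = 3.9e-08) at 48 h. The effects differed by -0.08 ± 0.09 (limma adjusted p = 0.73; 95% interval -0.27 to 0.11). TFRC, with its hairpins in the 3′ UTR, and both ferritin chains, with theirs in the 5′ UTR, were higher in the same libraries, while SLC40A1, with a 5′ UTR hairpin too, lay lower in them.

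SLC40A1, ferroportin, the exporter of iron, was the least abundant of the 10 and fell at 24 h. It had 2.08 and 2.85 CPM (17 and 20 reads) with KI696 at 24 h, against 8.66 and 9.55 CPM (73 and 69 reads) with DMSO. Its log2 change was -1.80 ± 0.28 (limma adjusted p = 1.9e-04), 3.48-fold lower, and -0.92 when 5 CPM were added before the log. At 48 h the KI696 libraries had 5.05 and 2.91 CPM (36 and 30 reads), against 6.59 and 5.19 CPM (48 and 73 reads) with DMSO. The KI696 libraries lay below the DMSO libraries by less than the spread between them, and the log2 change of -0.58 ± 0.28 did not pass (limma adjusted p = 0.11; 95% interval -1.18 to 0.03), although it did without KI696 48 h library A (-0.95, limma adjusted p = 0.018). The difference between the effects, 1.22 ± 0.40, did not pass either (limma adjusted p = 0.15), though it was 1.60 and passed without KI696 48 h library B (limma adjusted p = 0.029).

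SLC48A1, which moves heme from lysosomes into the cytosol, had 43.5 and 41.6 CPM with KI696 at 24 h, against 20.1 and 26 CPM with DMSO. At 48 h it had 39.3 and 45 CPM with KI696, against 18.8 and 22.7 CPM with DMSO. The groups were apart at both times, with a log2 change of 0.89 ± 0.13 (limma adjusted p = 1.5e-04) at 24 h and 1.02 ± 0.13 (limma adjusted p = 4.0e-05) at 48 h. The effects differed by 0.13 ± 0.19 (95% interval -0.28 to 0.54).

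Per kilobase of exon FTL, FTH1, BLVRB and SLC40A1 held the same rank in all 4 groups (1, 2, 5 and 10), and the other members changed places. Length counted every exon base of a gene's annotated coding transcripts, expressed here or not, which can lower the value of genes with many transcripts. HMOX2 ranked 9 in KI696 24 h cells and 6 in DMSO 24 h cells, and TFRC and BLVRA swapped ranks 3 and 4 in DMSO 48 h cells. FTL stood first at 7071 ± 176 CPM per kb in KI696 24 h cells and 2544 ± 36.5 in DMSO 24 h cells (SD, n = 2 each). FTH1 followed at 1974 ± 84.9 and 790 ± 6.09, and TFRC at 134 ± 0.541 and 58.4 ± 3.64. SLC40A1 was last in every group, at 0.717 ± 0.158 CPM per kb in KI696 24 h cells and 2.65 ± 0.182 in DMSO 24 h cells.

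Neighbours in that order were often within their spread. In DMSO 24 h cells TFRC and BLVRA (55.4 ± 1.13) overlapped, and FECH and HMOX2 stood at 12.2 CPM per kb each. In KI696 24 h cells BLVRB (36.7 ± 3.73) and FECH (34.7 ± 0.227) overlapped, as did SLC48A1 (12.3 ± 0.379) and HMOX2 (12 ± 0.169). BLVRA, at 47.4 ± 3.3 CPM per kb, stood between TFRC and BLVRB in KI696 24 h cells.

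The genes nearest to 3 members by shape of profile, measured as the root mean square difference of log2 levels over the 8 libraries after centring, were listed as a description without a test. For FTL they were SLC7A11 (0.11), TRIM16 (0.15) and ME1 (0.15), with FTH1 at rank 4 (0.18). SLC7A11 imports cystine, and its log2 changes of 1.65 at 24 h and 2.07 at 48 h stand beside FTL's 1.47 and 2.18. For SLC48A1 they were DUSP7 (0.08), FOXO3B (0.09) and EFCAB4B (0.10). HMOX1 had looser neighbours, CGREF1 (0.25), USP2 (0.25) and SYT2 (0.26).

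Other heme and iron genes were called in both directions. Of 71 tested on 8 lists, 14 were higher and 11 lower with KI696 at 24 h, and 18 higher and 9 lower at 48 h, with median log2 changes of 0.02 and 0.07. The calls in either direction were 25 of 71 at 24 h and 27 of 71 at 48 h, where 48.6% and 48.8% of all tested genes were called, so they are no more frequent than over the whole table. For the difference between effects limma called 0 of the 71, 8 of them had an unadjusted p under 0.05, and voom called 0. Iron sensing showed 0 higher and 3 lower of 4 tested at 24 h, where 30.5% of all tested genes were lower: ACO1, whose product is an iron regulatory protein when it lacks its cluster, fell by 0.47 on the log2 scale (limma adjusted p = 2.6e-04), FBXL5, which targets these proteins for degradation, fell by 0.65 (limma adjusted p = 4.6e-04), and HFE fell by 0.73 (limma adjusted p = 0.019). HFE lost its call under quantile (-0.30) and voom (-0.62) scaling and without DMSO 24 h library A, DMSO 24 h library B or KI696 24 h library B (adjusted p 0.057 to 0.12). At 48 h ACO1 and FBXL5 were the 2 called. The remaining gene tested, IREB2, was called at neither time. Its log2 change was 0.02 at 24 h (limma adjusted p = 0.77) and -0.08 at 48 h (limma adjusted p = 0.29).

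Heme synthesis before FECH was mixed, with 1 higher and 1 lower of 7 at 24 h and 2 higher and 2 lower at 48 h. For this list and those below, the shares over all tested genes were 18.1% higher and 30.5% lower at 24 h. At 48 h they were 22.4% and 26.4%. PPOX, the enzyme just before FECH, fell by 0.63 at 24 h and 0.65 at 48 h on the log2 scale (limma adjusted p = 0.007 and 0.0055). The 24 h call on PPOX was lost under quantile scaling (-0.41) and without DMSO 24 h library B or KI696 24 h library B (adjusted p 0.06 to 0.1), and the 48 h call without DMSO 48 h library B (adjusted p = 0.068). Under TMM, median-ratio and voom 3 genes of the list were higher at 24 h. In heme transport 3 of 13 rose and 1 fell at 24 h, and 4 rose and 2 fell at 48 h, led by ABCB6, a porphyrin transporter (1.16 at 24 h, limma adjusted p = 4.8e-07), and 0 were lower at either time under TMM, median-ratio or voom.

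Iron uptake had 2 higher and 3 lower of 11 at 24 h, and 4 higher and 1 lower at 48 h. With 1 library left out the higher counts were 1 to 2 at 24 h (1 without KI696 24 h library B or either DMSO 24 h library) and 3 to 6 at 48 h (6 without KI696 48 h library B). SLC39A14, a metal importer, rose by 0.62 and 0.74 (limma adjusted p = 1.0e-05 and 1.6e-06), while CYBRD1, a ferric reductase, fell by 1.58 and 1.86 (limma adjusted p = 1.9e-07 and 3.0e-08). The list labelled iron export had 2 tested genes, SLC11A1 and CP. Limma with the variance trend and voom called 0 of them at either time. At an unadjusted p under 0.05 there was 1 at 24 h and 0 at 48 h. The label is a list name and does not state that either gene exports iron. SLC11A1 was called lower at 24 h with no filter, no variance trend or only the libraries of that contrast. It averaged 0.449 CPM with KI696 and 1.28 CPM with DMSO at 24 h, and 0.76 and 1.4 CPM at 48 h. It passed the filter only through DMSO libraries, so its calls are given as a description. CP had a log2 change of -1.35 at 48 h, and -2.36 without KI696 48 h library A, which leaves 1 KI696 library at that time. Its levels at 48 h were low, 0.609 ± 0.725 CPM with KI696 and 1.6 ± 0.849 CPM with DMSO (SD). Storage and chaperones had 1 higher and 1 lower of 4 at each time. The gene lower at 24 h, PCBP4 (-0.51), lost its call under quantile scaling, no variance trend and voom and without KI696 24 h library B or either DMSO 24 h library (adjusted p 0.054 to 0.14), and under quantile scaling 0 were higher at 48 h. Mitochondrial iron and iron-sulfur cluster genes had 7 higher and 1 lower of 21 at 24 h and 6 higher and 1 lower at 48 h, among them HSPA9 (0.65 and 0.79), though 0 were lower at 24 h under TMM, median-ratio, quantile or voom. Cytosolic assembly had 0 higher and 1 lower of 9 at 24 h and 1 higher and 0 lower at 48 h, but 2 higher and 0 lower at 24 h and 2 higher at 48 h under TMM, median-ratio and voom. MMS19, the gene higher at 48 h (0.23), lost its call with no variance trend (0.084), with only the libraries of that contrast (0.058), and without DMSO 48 h library A (0.13) or KI696 48 h library B (0.17), and FAM96B, the gene lower at 24 h (-0.30), also without DMSO 24 h library B (0.089) or KI696 24 h library B (0.064).

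On the NRF2 and BACH1 list, 9 of 12 were higher and 2 lower at 24 h, and 9 higher and 1 lower at 48 h. Among all tested genes 18.1% were higher and 30.5% lower at 24 h, and 22.4% and 26.4% at 48 h. GCLM and GCLC, subunits of the enzyme that starts glutathione synthesis, rose by 2.40 and 2.39 on the log2 scale at 24 h (limma adjusted p = 5.1e-09 and 4.4e-09). BACH1 itself rose by 0.36 and 0.28 (limma adjusted p = 0.013 and 0.041), NFE2L2, which encodes NRF2, fell by 0.21 and 0.26 (limma adjusted p = 0.017 and 0.005), and KEAP1 rose by 0.73 and 0.57 (limma adjusted p = 1.3e-06 and 6.3e-06). The 24 h call on NFE2L2 was lost under TMM (-0.10), median-ratio (-0.11) and voom (-0.11) scaling, with no variance trend, and without DMSO 24 h library A (adjusted p = 0.12) or KI696 24 h library A (0.16). The call on BACH1 was lost with no variance trend at both times, at 24 h without DMSO 24 h library A (0.17) or KI696 24 h library A (0.13), and at 48 h with no filter and without DMSO 48 h library A (0.18), KI696 48 h library B (0.17) or either KI696 24 h library (0.054 to 0.055). These lists were chosen with earlier results of these data known, so their direction is no independent evidence.

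**Figure D4:**
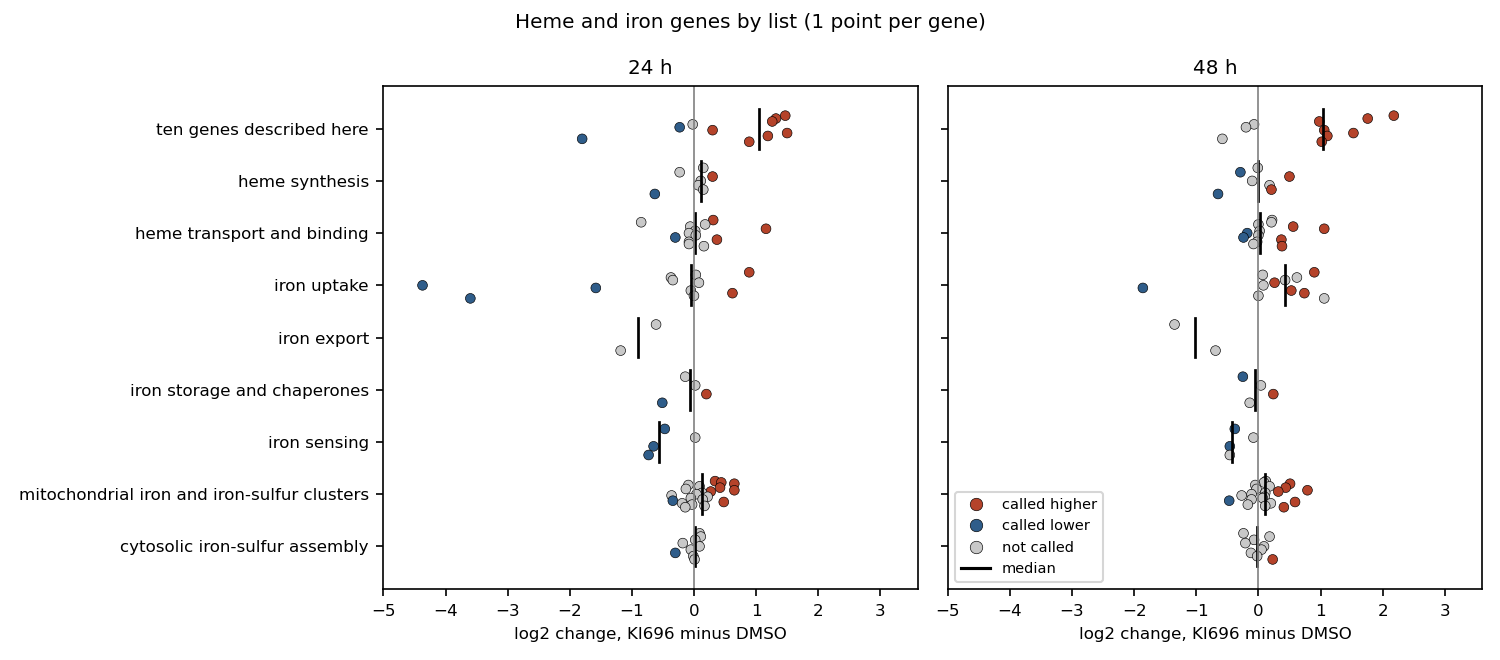
Log2 change with KI696 at 24 h and 48 h of the genes on each heme and iron list, each point a gene coloured by its limma call, beside the 10 genes described here, with lines at list medians. The 10 genes have a median of 1.04 at both times, and the iron sensing list -0.56 at 24 h and -0.42 at 48 h.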

How the data were processed

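Transcripts of Calu-6 cells were sequenced from poly(A) RNA as single 75-base reads, per the labels' protocols. The submitters' processing notes name hg38, R 4.0.3 and edgeR. Not given in the sources used here: aligner, counter, annotation, strand setting and filter. The authors deposited log2 values, read here from their steps and shared floor (-2.05, 0.242 CPM) as log2 CPM with a small count added; whole reads were recovered from the steps, largest distance to a whole number 2.4e-09. Of 14556 genes, 21 with symbols turned into dates were left out.

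Column headers give no replicate number, so libraries A and B follow column order. limma 3.58.1 (R 4.3.3) was fitted to the log2 values of 13213 genes, using group means, a variance trend and 4 residual degrees of freedom (13.1 with the prior), two-sided, with Benjamini-Hochberg adjustment at 0.05. CPM is the antilog less the floor. On data simulated for the 24 h comparison limma called 78 of 100 genes changed by log2 1, 98 of 100 by log2 2 and 16 unchanged genes of 13213 in all. The simulation changed only those genes and gave all genes the same spread beyond counting error. In the real data 48.6% of tested genes were called at 24 h, so these rates need not hold there. Chi-square per degree of freedom between the libraries of a group was 1.65 to 4.82.

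The members and lists were chosen with earlier results of these data known. Named genes are all 10 members, up to 3 genes per list with the smallest p at each time, 4 genes of the NRF2 and BACH1 list, and the 3 nearest profiles of FTL, HMOX1 and SLC48A1; some list genes the rule names are not reported here. Alternatives were TMM, median-ratio and quantile scaling, 3 other added counts, 2 other filters, no variance trend, voom, only the libraries of a contrast, and each library left out.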

Additional observations from a re-analysis of the deposited data

Results flagged for a closer look

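In 2 of the 10 members and in NQO1, a quinone reductase driven by NRF2, the effect of KI696 at 48 h differed from that at 24 h by the test of the difference itself (limma, Benjamini-Hochberg adjusted p under 0.05, which called 112 genes in all, 0.848% of those tested). FTL differed by 0.70 on the log2 scale (adjusted p = 0.012), BLVRB by 0.76 (adjusted p = 0.042), and NQO1 by 1.04 (adjusted p = 0.0097), each larger at 48 h. NQO1 averaged 1838 CPM with KI696 and 504 CPM with DMSO at 24 h, and 2106 CPM with KI696 and 282 CPM with DMSO at 48 h. Its call was lost with no variance trend (adjusted p = 0.25), with no filter (0.054) and without any 1 of the 4 libraries of 24 h (0.052 to 0.15).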

How the results depend on the processing

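FTL, FTH1, FECH, TFRC and SLC48A1 kept direction and call for KI696 at both times in every alternative run. Members called lower at 24 h were 2, and 1 under TMM, median-ratio, quantile, no variance trend and voom; at 48 h quantile scaling gave 1 in place of 0. For the difference between effects, 112 genes were called, and 190 with 5 CPM added, 5 with no filter, 0 with no variance trend and 62 with voom; its members called were 2, and 1 under TMM, median-ratio and voom and 0 with no filter or no variance trend. For DMSO at 48 h against 24 h, no variance trend gave 153 genes in place of 1274 and 1 member lower in place of 3. The cause was not tested. Leaving out 1 library gave 4666 to 6635 genes at 24 h and 5291 to 6166 at 48 h, 1 to 530 for the difference (lowest without KI696 24 h B, highest without KI696 48 h B) and 316 to 1646 for DMSO. Members higher were 6 to 7 at 24 h and at 48 h, 0 to 3 for the difference and 0 to 1 for DMSO, where HMOX1 was called without DMSO 48 h B (1.13, adjusted p = 0.0045); members lower were 1 to 2, 0 to 1, 0 to 0 and 1 to 3. The FTL to FTH1 value was 0.28 to 0.30.

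Signs that turned under scaling were of values that were not called: HMOX2 at 24 h (0.08 under TMM, median-ratio and voom, 0.05 quantile), SLC39A8 at 24 h (0.06 TMM and quantile, 0.05 median-ratio and voom), CP at 24 h (0.66 quantile), the FECH difference (-0.02 TMM and median-ratio, -0.002 quantile, -0.001 voom) and the BLVRA difference (-0.02 TMM, median-ratio and voom, -0.01 quantile). With 1 library left out, ranges that crossed 0 were, at 24 h, HMOX2 -0.07 to 0.02, SLC39A8 -0.15 to 0.05 and MMS19 -0.03 to 0.06; at 48 h, HMOX2 -0.19 to 0.04, STEAP4 -1.68 to 1.84 and PCBP4 -0.35 to 0.06. For the difference they were HMOX1 -0.79 to 0.21, HMOX2 -0.16 to 0.06, FECH -0.09 to 0.14, BLVRA -0.06 to 0.10 and SLC48A1 -0.06 to 0.31, and for DMSO FECH -0.05 to 0.02, TFRC -0.09 to 0.06 and SLC48A1 -0.33 to 0.04. FTH1 passed for the difference without DMSO 48 h A (0.59, adjusted p = 0.0031). For DMSO, FTH1 lost its call with no variance trend (0.12) and without DMSO 24 h A (0.064), and BLVRB with no variance trend (0.091), without DMSO 24 h A (0.16) and without DMSO 48 h B (0.055). No paired analysis was possible because the columns carry no replicate number. Only the libraries of the contrast gave no value for the difference, which uses all 8. Among the members SLC40A1 had the fewest reads, 17 to 73 per library.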

Other observations

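Alpha-globin transcripts, heme proteins on the erythroid marker list, were chosen after their values were seen. HBA1 had 13 and 19 reads with KI696 at 24 h, against 1 and 1 with DMSO, and 20 and 26 reads with KI696 at 48 h, against 2 and 3 with DMSO. HBA2 had 6 and 11 reads with KI696 at 24 h, against 3 and 3 with DMSO, and 6 and 25 reads with KI696 at 48 h, against 1 and 3 with DMSO. Both genes reached 1 CPM in KI696 libraries only, through which they passed the filter, so their values are a description with no test. The genes are near-identical copies, so the reads of each are uncertain. EPOR, the erythropoietin receptor, had log2 changes of -1.09 ± 0.17 at both times (limma adjusted p = 2.1e-04 and 1.9e-04).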
